A study of Mus musculus with 6 samples.

Results

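Ubiquitin-specific proteases are enzymes that cut ubiquitin from proteins. Their transcripts were followed in cells of mouse bronchoalveolar lavage fluid, which is recovered by rinsing the airspaces of the lung. The members were all gene symbols of the deposited table that begin with Usp followed by a digit, with Usp18 left out. That gave 55 of the 22800 symbols, of which 39 were tested, among 10405 tested genes, because they reached 1 FPKM in at least 3 libraries. The match by name includes Usp6nl, a regulator of Rab GTPases that is not a protease, and it leaves out Cyld, Pan2 and Uspl1, which carry a protease domain of the same kind under other names. The series compares 3 libraries from mice given vehicle (replicates 2, 3 and 4) with 3 from mice that received sulfatide (20 µg, intraperitoneal; replicates 1, 2 and 3), and values of single libraries are given in that order. Sulfatide is a sulfated glycolipid that CD1d presents to type II natural killer T cells. Strain, age, sex, genotype and time after injection were not given in the sources used here. They also leave unsaid whether the lung ischemia and reperfusion of the series title had been applied. No label ties a library to an animal, so the p-values measure the spread between libraries, which may be technical.

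Ubiquitin is a small protein that is joined to lysines of other proteins, singly or in chains, and the kind of chain sets whether a protein is degraded, moved or switched in a signalling complex. Deubiquitinases remove it again. Most ubiquitin-specific proteases use a cysteine at the active site, and they differ in the sequences around the catalytic domain, which place each enzyme on its substrates, for example on chromatin, endosomes, mitochondria or the proteasome. In macrophages several members act on the adaptor and kinase complexes that link Toll-like and cytokine receptors to NF-kappaB and to interferon genes.

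Levels are given as FPKM, the fragments of a gene scaled to transcript length and library size, so that genes can be compared with each other. FPKM summed to 1126779 to 1168474 in the vehicle libraries and to 1217971 to 1249691 in the sulfatide libraries, and the depth estimated from low values was 0.844 to 1.2 times that of vehicle replicate 2. All 8 macrophage markers on the marker list were tested (summed level 33283 to 38009 FPKM in vehicle and 29246 to 40786 FPKM in sulfatide). Of 10 alveolar macrophage markers 6 were tested (summed level 138 to 187 FPKM and 91.6 to 240.4 FPKM). Their defining genes Krt79 and Fabp1 had 0 FPKM in each library, and Siglecf and Car4 were below the level for testing. None of 8 epithelial and none of 8 T and NK cell markers reached that level, with Sftpc and Cd3e listed at 0. The neutrophil list had a summed level of 174 to 240 FPKM in vehicle and 461 to 634 FPKM in sulfatide, of which S100a8 alone made up 91.7 to 114 FPKM and 361 to 471 FPKM, while the neutrophil-defining genes Ly6g, Cxcr2 and Retnlg were below the level for testing. Called markers were S100a8 and Mmp8 of the neutrophil list, both higher, and Plet1 and Itgax of the alveolar macrophage list, Cd14 of the macrophage list and Pdgfrb of the stromal list, all lower. In such bulk libraries, fewer cells of a type and less RNA per cell cannot be told apart.

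Few of the proteases passed the test between the groups. Usp25 and Usp12 were lower in sulfatide by about the same proportion (35.1% and 37.6% of the vehicle mean), and Usp1 was higher by 37.6%. These were the members called by limma at an adjusted p below 0.05, the threshold used throughout. The 3 called members are 7.69% of the 39 tested. Over all genes tested the share called was 18.7% (8.31% higher and 10.4% lower). Of those calls 44.5% were higher, and 23.6% were after rescaling the libraries to an equal sum (TPM). The remaining 36 tested members did not pass. Of the 39, 8 had an unadjusted limma p below 0.05, beside 3517 of all 10405 tested genes. No member changed by 2-fold or more on the log2(FPKM + 1) scale, whereas 3.82% of all tested genes did.

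**Figure D1:**
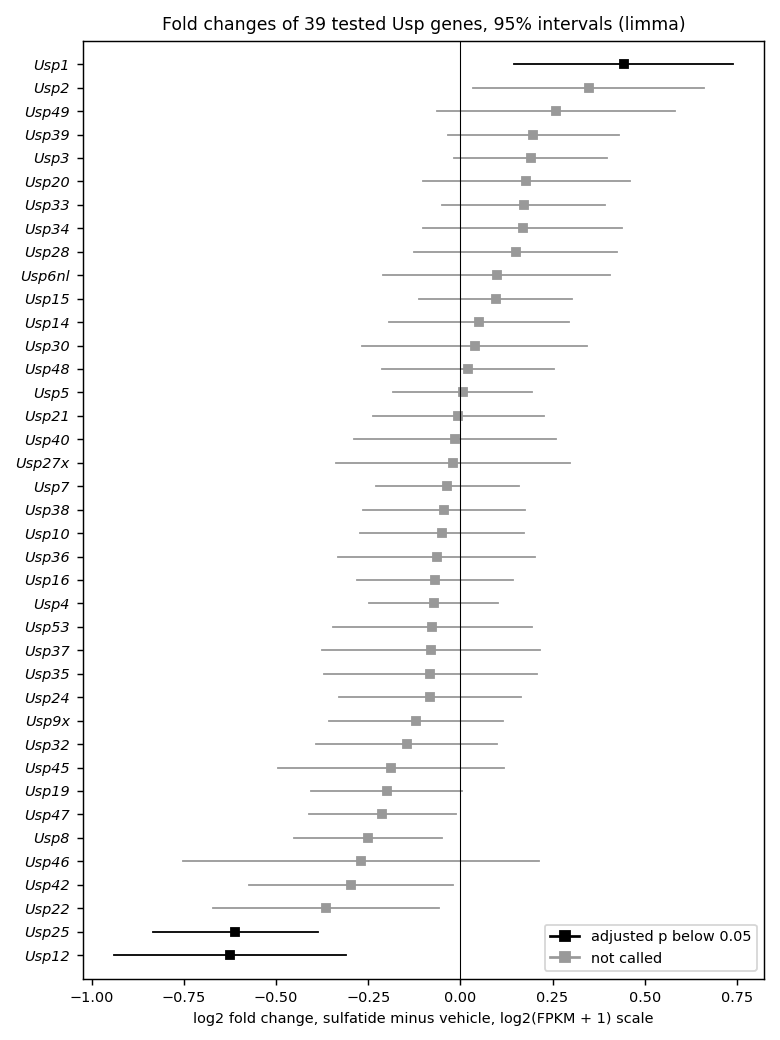
Log2 fold change (sulfatide minus vehicle, log2(FPKM + 1) scale) of the 39 tested Usp genes from limma, with 95% intervals as horizontal bars; black marks an adjusted p below 0.05 and grey the other genes. Usp12 and Usp25 lie at the lower end at -0.63 and -0.61, Usp1 at the upper end at 0.44, and most other intervals include 0.

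The 39 fold changes ranged from -0.63 to 0.44 with a median of -0.04 (24 negative and 15 positive), beside a median of 0.04 over all tested genes. After rescaling to TPM these medians were -0.14 and -0.06. Without regard to sign the median was 0.12 for the members and 0.19 for all tested genes. The 95% interval lay wholly between -0.5 and 0.5 for 31 members (79.5%) and for 54.8% of all tested genes. In 15 members the 3 libraries of one group did not overlap the 3 of the other (6 higher and 9 lower, 38.5% of the members), against 37.0% of all tested genes (18.6% higher and 18.3% lower), so that this count is near the background.

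**Figure D2:**
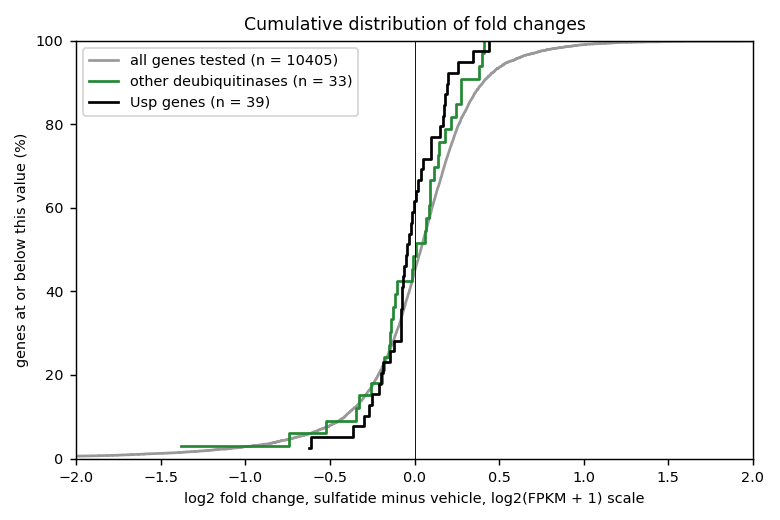
Cumulative share of genes (vertical axis, %) against log2 fold change (horizontal axis, sulfatide minus vehicle, log2(FPKM + 1) scale). Curves are for all 10405 tested genes, the 39 Usp genes and 33 genes of other deubiquitinase families. Cyld, Pan2 and Uspl1 are counted among the 33. Genes beyond the horizontal limits are not drawn. The Usp curve runs from -0.63 to 0.44 and is steeper than that of all genes, which has longer tails on both sides.

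The promoter of Usp12 is shown because this gene had the largest fall among the tested members on the log2(FPKM + 1) scale and its start region lies outside other annotated exons. The stretch covers chr5:146795007-146795206 of GRCm38 (the mm10 build), on the minus strand, from the RefSeq promoter table, and ends at the outermost annotated exon of the gene. It is written 5′ to 3′ and capitals mark GC boxes, the motif GGGCGG on either strand, which Sp1 family factors bind.

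Usp12: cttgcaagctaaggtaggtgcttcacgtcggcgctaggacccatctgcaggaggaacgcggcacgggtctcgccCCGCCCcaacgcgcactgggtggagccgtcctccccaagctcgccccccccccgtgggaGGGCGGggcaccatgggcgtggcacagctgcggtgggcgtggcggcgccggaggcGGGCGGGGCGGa

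These 200 bases are 74.5% G and C and hold 4 matches to the GC box, of which the last 2 overlap by 1 base. The table held 31 windows of 300 bases for 30 of the 39 tested members, and 25 of those windows (80.6%) had a GC box. The share was 62.8% in windows of all tested genes and 35.7% in all windows of the table. The interferon-stimulated element core (GAAA and GAAA with 2 bases between them, 1 member window), the NF-kappaB motif (GGG and TTTCC with 2 bases between them, 0), the E2F motifs TTTGGCGC (0) and TTTCCCGC (1) and the AP-1 motif TGANTCA (2) were searched on both strands of the same windows. They occurred in 3.44%, 1.63%, 0.514%, 1.07% and 7.81% of all windows, in that order, and in 3.36%, 1.76%, 1.02%, 2.02% and 5.27% of windows of tested genes. None was in the Usp12 window. A match is a description of letters and not of a bound site.

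Members differed widely in level. The mean over 6 libraries spanned 75.3-fold among tested members, from Usp14 and Usp25 at the top to Usp49 at the bottom. The median member had a mean of 9.88 FPKM, below the median of all tested genes (17.6 FPKM), and 18.7% of tested genes lay above Usp14. Summed over all members but Usp6nl, the level was 699.9 to 751.2 FPKM in vehicle and 674.6 to 706.5 FPKM in sulfatide. This was 0.0621 to 0.0649% and 0.0544 to 0.0570% of the summed FPKM of the libraries. Usp39, which has no protease activity, is part of this sum. Without Usp25 the sums were 617.3 to 666.8 and 618.8 to 650.5 FPKM, and as shares of the libraries 0.0548 to 0.0571% and 0.0499 to 0.0521%. The sums overlapped between the groups with and without Usp25, and the shares did so in neither case. The summed FPKM that the shares are taken of did not overlap either (1126779 to 1168474 in vehicle and 1217971 to 1249691 in sulfatide). After rescaling to TPM the median log2 fold change of all tested genes was also below 0 (-0.06). Usp25 made up 11.2 to 13.5% of the sum over members but Usp6nl in vehicle and 7.93 to 8.86% in sulfatide.

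**Figure D3:**
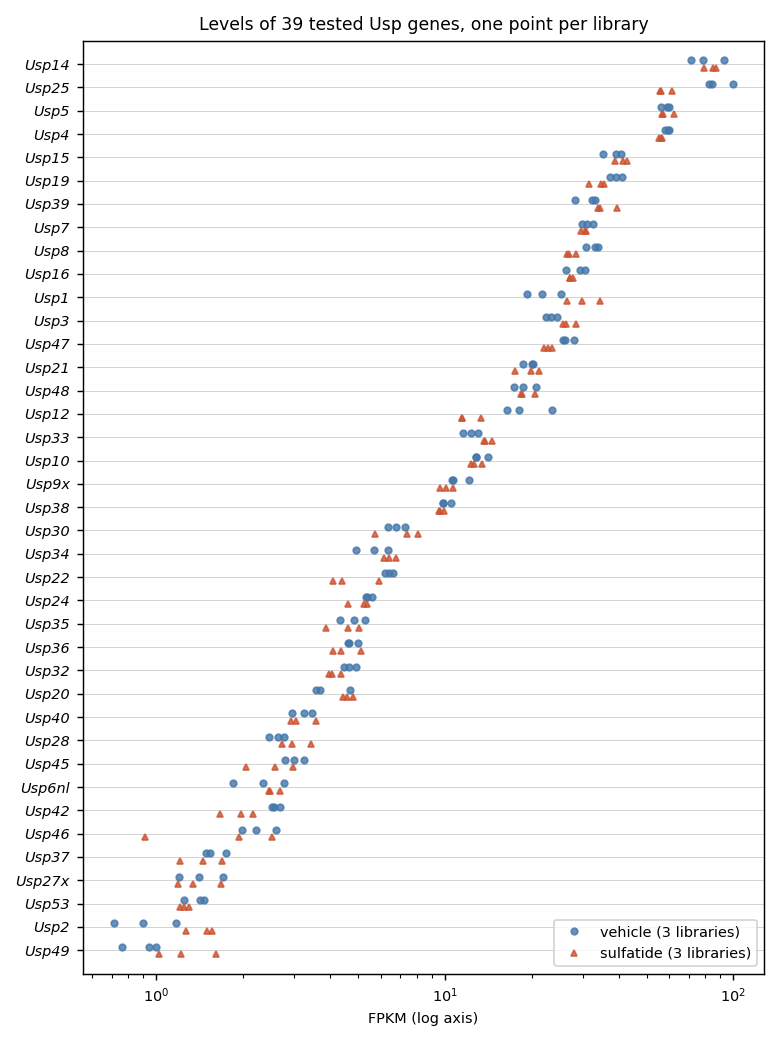
FPKM of the 39 tested Usp genes on a log axis, 1 point per library (circles, 3 vehicle libraries; triangles, 3 sulfatide libraries), ordered by mean level. Usp14 and Usp25 are highest, Usp2 and Usp49 lie near 1 FPKM, and for most genes the groups overlap.

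Among members that act in immune signalling, Usp25 stood at 100, 84.3 and 82.6 FPKM in the vehicle libraries and at 56.0, 61.5 and 55.8 FPKM in the sulfatide libraries. Each sulfatide library lay below each vehicle library. Usp25 edits ubiquitin chains on Traf adaptors downstream of interleukin and Toll-like receptors. The gene (ENSMUSG00000022867.10, chromosome 16, 77013706 to 77116780) fell 1.54-fold, from 89.0 ± 9.59 to 57.8 ± 3.22 FPKM (SD, n = 3 each; log2 fold change -0.61 ± 0.10, SE; limma adjusted p = 0.00316). It was called under each of 14 alternative settings, among them each library left out in turn (adjusted p 0.000346 to 0.0187). Of 6 tested neutrophil markers 3 had positive and 3 negative fold changes, and their higher sum in sulfatide was carried by S100a8. Of 8 macrophage markers 4 were positive and 4 negative, and Cd14 (3657 ± 69.6 and 2360 ± 167 FPKM) was the called one. The part of these markers in the Usp25 result was not tested.

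**Figure D4:**
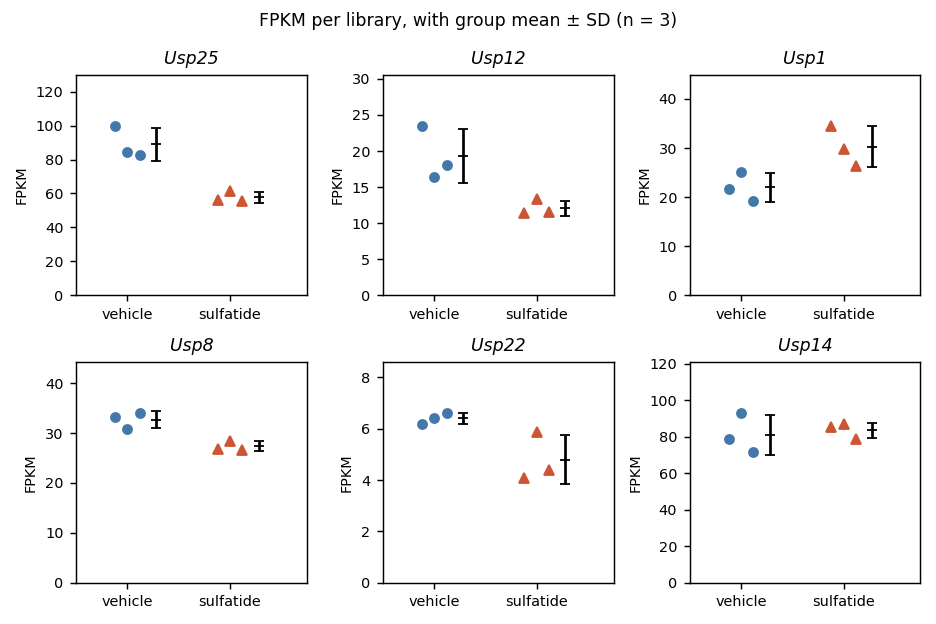
FPKM (vertical axes, from 0) of Usp25, Usp12, Usp1, Usp8, Usp22 and Usp14 in each library, with group mean ± SD (n = 3) as bars beside the points. The groups are apart for Usp25, Usp12, Usp1, Usp8 and Usp22, although Usp8 and Usp22 were not called, and they overlap for Usp14.

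None of the other signalling members was called. Usp4, which removes chains from Tak1 and Traf proteins, was at 58.9 ± 1.08 and 56.0 ± 0.560 FPKM. Its libraries did not overlap, but the difference of 4.98% was small beside the model's error (log2 fold change -0.07, 95% interval -0.25 to 0.10, adjusted p = 0.545). Usp15, a close relative of Usp4, was at 38.4 ± 2.71 and 41.1 ± 1.87 FPKM (interval -0.11 to 0.30). Usp38 was at 10.1 ± 0.364 and 9.71 ± 0.221 FPKM. Usp2, a clock-linked protease, stood at 0.71, 1.17 and 0.90 FPKM in vehicle and at 1.56, 1.27 and 1.5 FPKM in sulfatide, without overlap (log2 fold change 0.35 ± 0.14, adjusted p = 0.113). Usp2 and Usp49 reached 1 FPKM in 1 vehicle library each and in all 3 sulfatide libraries, so that they entered the test through the group in which they were higher. Usp31 was below the level for testing, at 0.747 ± 0.0808 and 0.733 ± 0.0651 FPKM.

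Usp12 and Usp46 are close relatives, and both are inactive until they bind the WD-repeat protein Wdr48, which also activates Usp1. Usp12 stood at 23.5, 16.4 and 18.1 FPKM in the vehicle libraries and at 11.4, 13.3 and 11.5 FPKM in the sulfatide libraries. The groups did not overlap, and vehicle replicate 2 was the highest library. The gene (ENSMUSG00000029640.17, chromosome 5, 146734809 to 146795006) fell 1.6-fold, from 19.3 ± 3.72 to 12.1 ± 1.05 FPKM (log2 fold change -0.63 ± 0.14, limma adjusted p = 0.0160). The call did not hold without vehicle replicate 2 (-0.48, adjusted p = 0.0571) or without sulfatide replicate 3 (-0.59, adjusted p = 0.0579). Usp46 was lower in level, at 2.27 ± 0.313 and 1.79 ± 0.811 FPKM, and its sulfatide values spread from 0.91 to 2.51 FPKM (log2 fold change -0.27, interval -0.75 to 0.21, adjusted p = 0.406). That interval holds both 0 and the fall of Usp12, and the difference between the relatives was not tested.

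Usp1, the Wdr48 partner that removes ubiquitin from the replication clamp Pcna and from Fancd2, was the called member of those for DNA repair and the cell cycle. It stood at 21.7, 25.2 and 19.2 FPKM in the vehicle libraries and at 34.6, 29.9 and 26.4 FPKM in the sulfatide libraries. The groups did not overlap, with the highest vehicle library (replicate 3) close below the lowest sulfatide library (replicate 3). The gene (ENSMUSG00000028560.11, chromosome 4, 98923810 to 98935543) rose 1.38-fold, from 22.0 ± 3.00 to 30.3 ± 4.11 FPKM (log2 fold change 0.44 ± 0.13, limma adjusted p = 0.0470). This call is close to the threshold and was lost under 7 of 14 alternatives, among them the omission of vehicle replicate 2 (0.147) or 4 (0.150) and of sulfatide replicate 1 (0.157) or 2 (0.0832). With no filter the adjusted p was 0.0894, after rescaling to TPM 0.0923, and in the fit with the replicate block 0.359 (log2 fold change 0.25). That block fit draws the group difference from replicates 2 and 3 alone. Vehicle replicate 4 and sulfatide replicate 1 have no library of the same number in the other group.

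Beside Usp1, part of a list of 30 cell cycle genes was higher in the sulfatide libraries. Of these, 12 were called higher and 0 lower (40.0%, beside 8.31% of all tested genes called higher), and 18 did not pass. An unadjusted limma p below 0.05 was found for 19 of the 30, beside 3517 of all 10405 tested genes. Fold changes were positive for 29 and negative for Mcm6, named after its value was seen (-0.24, adjusted p = 0.380), with a median log2 fold change of 0.74 beside 0.04 over all tested genes. The spindle motor Kif20a rose from 14.9 ± 3.89 to 30.7 ± 7.46 FPKM, and the nucleotide enzymes Tk1 and Rrm2 and the mitotic regulator Birc5 rose as well. The mean log2(FPKM + 1) of the list came to 4.15, 4.67 and 3.87 in the vehicle libraries and to 5.33, 4.94 and 4.53 in the sulfatide libraries. In both the list and Usp1, vehicle replicate 3 was the highest vehicle library and sulfatide replicate 1 the highest library of all. For the list, vehicle replicate 3 lay above sulfatide replicate 3. Over all tested genes, deviations of vehicle replicate 3 and sulfatide replicate 1 from their group means correlated at 0.538. This was the highest of the values between a vehicle and a sulfatide library (-0.399 to 0.538). With 3 libraries per group these values depend on each other, so that the highest of them is a description only. The number of called cell cycle genes ranged from 0 (vehicle replicate 2 left out, 16 unadjusted) to 22 (vehicle replicate 3 left out). It came to 1 without vehicle replicate 4, and to 3, 5 and 17 without sulfatide replicate 1, 2 and 3, in that order. In the fit with the replicate block it was 0 (9 unadjusted) and in the fit on all genes without a filter 1 (19 unadjusted). It was 11 after rescaling to TPM, 14 with quantile normalization and 17 with array weights. The block fit takes no group difference from vehicle replicate 4 or sulfatide replicate 1, the lowest and the highest library of the list. The part of cycling cells in the Usp1 result was not tested.

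None of the other 5 tested members of this role was called. Usp47, which acts on the repair polymerase beta, was at 26.5 ± 1.20 and 22.8 ± 0.650 FPKM without overlap (log2 fold change -0.21, interval -0.41 to -0.01, adjusted p = 0.128). It passed after rescaling to TPM (limma adjusted p = 0.0302) and with array weights (0.0482). Usp48 was at 18.9 ± 1.66 and 19.1 ± 1.18 FPKM. Usp28, a relative of Usp25 that stabilizes Myc, was at 2.62 ± 0.156 and 3.03 ± 0.363 FPKM (log2 fold change 0.15, interval -0.12 to 0.43), so that its interval did not reach the fall of Usp25, although the difference between them was not tested. Usp45 and Usp37 were at 1.45 to 3.01 FPKM in group means. Usp11, another relative of Usp4 and Usp15, was below the level for testing (0.673 ± 0.0351 and 0.693 ± 0.127 FPKM), and the imprinted gene Usp29 was listed at 0 in all 6 libraries.

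Of 9 tested members that act on histones and chromatin none was called, and 2 had an unadjusted p below 0.05. Usp22, the deubiquitinase of the SAGA coactivator, had the largest difference on the log2(FPKM + 1) scale among members that were not called, while by the ratio of mean FPKM Usp2 (1.56-fold), Usp49 (1.43-fold) and Usp42 (1.34-fold) lay above it (1.33-fold). Usp22 stood at 6.2, 6.4 and 6.62 FPKM in vehicle and at 4.1, 5.89 and 4.41 FPKM in sulfatide. The groups did not overlap, and sulfatide replicate 2 lay nearest to vehicle. The log2 fold change was -0.36 ± 0.14 (limma adjusted p = 0.0925, and 0.0254 if sulfatide replicate 2 is left out). Usp22 also passed after rescaling to TPM (adjusted p = 0.0494) and with array weights (0.0201). The relatives of Usp22 were Usp27x (1.44 ± 0.251 and 1.40 ± 0.251 FPKM) and Usp51, which was listed at 0 in all libraries. Atxn7, which anchors the SAGA deubiquitinase module, fell from 3.21 ± 0.553 to 1.89 ± 0.193 FPKM (adjusted p = 0.0263). The Atxn7 call was lost when vehicle replicate 2 (0.0675) or 4 (0.0867) or sulfatide replicate 1 (0.0916) or 3 (0.0644) was left out, and in the fit with the replicate block (0.250).

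Usp42 stood at 2.56, 2.69 and 2.51 FPKM in vehicle and at 1.96, 2.16 and 1.66 FPKM in sulfatide (log2 fold change -0.30 ± 0.12, adjusted p = 0.123), again without overlap. Usp7, the protease of Mdm2, was at 31.1 ± 1.37 and 30.4 ± 0.610 FPKM (interval -0.23 to 0.16). Usp16 (28.8 ± 2.28 and 27.4 ± 0.431 FPKM) and Usp21 (19.6 ± 0.861 and 19.6 ± 1.83 FPKM) overlapped between groups. Usp3, which like Usp16 acts on histone ubiquitin, was at 23.4 ± 1.03 and 26.9 ± 1.5 FPKM without overlap (log2 fold change 0.19, adjusted p = 0.178). The nucleolar Usp36 was at 4.76 ± 0.220 and 4.52 ± 0.545 FPKM. Usp49 was at 0.900 ± 0.125 and 1.28 ± 0.300 FPKM (adjusted p = 0.235), and Usp44 did not exceed 0.04 FPKM.

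The 8 members of membrane traffic and organelles had no call, and all 8 intervals lay between -0.5 and 0.5. Usp8, which acts on receptors at the endosome, was nearest to the threshold. It stood at 33.3, 30.8 and 34.0 FPKM in vehicle and at 26.9, 28.5 and 26.6 FPKM in sulfatide, without overlap (log2 fold change -0.25 ± 0.09, adjusted p = 0.0800). It passed after rescaling to TPM (-0.36, adjusted p = 0.026) and with array weights (0.0153). Usp19, part of which is anchored in the endoplasmic reticulum, averaged 39.1 ± 1.87 and 34.0 ± 2.17 FPKM (log2 fold change -0.20, adjusted p = 0.159, and 0.0388 after rescaling to TPM). Among the members, Usp4 and Usp19 are next to each other on chromosome 9, 98056 bases apart.

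Usp33 and Usp20 are close relatives, and their fold changes were 0.17 and 0.18 at levels of 12.3 to 14.0 FPKM and 3.98 to 4.61 FPKM in group means (adjusted p = 0.250 and 0.341). Usp9x was at 11.1 ± 0.859 and 10.1 ± 0.530 FPKM, while its relative on chromosome Y, Usp9y, did not exceed 0.01 FPKM. Usp10, which is found with the stress granule protein G3bp1, was at 13.2 ± 0.755 and 12.8 ± 0.578 FPKM. Usp30, of the outer mitochondrial membrane, was at 6.80 ± 0.460 and 7.07 ± 1.21 FPKM, and Usp32 was at 4.68 ± 0.226 and 4.14 ± 0.206 FPKM.

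The members that recycle ubiquitin at the proteasome were among the highest, and neither was called. Usp14, which binds the proteasome and trims chains there, stood at 78.5, 93.0 and 71.4 FPKM in vehicle and at 85.0, 86.7 and 78.8 FPKM in sulfatide (log2 fold change 0.05, interval -0.19 to 0.29, adjusted p = 0.773). The vehicle libraries enclosed the sulfatide libraries. Usp5, which takes apart free ubiquitin chains, was at 58.2 ± 1.79 and 58.6 ± 3.21 FPKM (interval -0.18 to 0.20). Its relative Usp13 did not exceed 0.06 FPKM. Usp39, a splicing factor of this fold without protease activity, was at 31.2 ± 2.65 and 36.0 ± 2.97 FPKM without overlap (log2 fold change 0.20, adjusted p = 0.210).

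Of the remaining tested members, Usp34, Usp24, Usp35, Usp40 and Usp53 had fold changes of -0.08 to 0.17, with no call and 0 of 5 at an unadjusted p below 0.05 by limma. Usp54, the relative of Usp53, was at 0.7 ± 0.05 and 0.727 ± 0.191 FPKM, below the level for testing. Usp6nl was at 2.32 ± 0.461 and 2.54 ± 0.133 FPKM (adjusted p = 0.648). Among the 16 members that were not tested, Usp26, Usp29, Usp51, Usp17la, Usp17lb, Usp17lc and Usp17le were listed at 0 in all 6 libraries, and Usp17ld and Usp50 each rose above 0 in 1 vehicle library (0.05 and 0.13 FPKM). The Usp17l genes are near-identical copies that lie together on chromosome 7, so that fragments cannot be divided among them with certainty. Usp43 was at 0.113 ± 0.00577 and 0.0300 ± 0.0173 FPKM, too low for a comparison.

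Positions of the genes give a limit on some values. In the GENCODE M21 annotation of the same build, 14 of the 39 tested members share exonic sequence with another gene, 13 of them with a gene on the opposite strand, as Usp14 does with Thoc1 and Usp16 with Cct8. Counting by strand was not given in the sources used here. None of the 3 called members had such an overlap.

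Other deubiquitinases were set beside the family. Of 33 tested genes of the UCH, OTU, Josephin, JAMM, MINDY and ZUP1 families, with Cyld, Pan2 and Uspl1, 3 were called, all lower (9.09%, beside 18.7% of all tested genes), and the median log2 fold change was 0.01. Tnfaip3, the NF-kappaB-induced editor of ubiquitin chains also called A20, fell 2.66-fold (67.5 ± 5.01 to 25.3 ± 2.41 FPKM, adjusted p = 7.16e-05), a larger change than that of any Usp gene tested. Zup1, which cuts long ubiquitin chains, fell 1.68-fold (68.8 ± 8.28 to 41.0 ± 7.36 FPKM, adjusted p = 0.00789). Otud5, a regulator of interferon signalling through Traf3, fell 1.46-fold (79.7 ± 10.8 to 54.7 ± 2.21 FPKM, adjusted p = 0.0119, and 0.0642 without vehicle replicate 2 or 0.0954 with the replicate block). In the OTU family, Vcpip1 (-0.35, adjusted p = 0.0561) and Otulin (0.24, adjusted p = 0.102) came next by p.

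Cyld, which removes ubiquitin chains from NF-kappaB complexes, was at 19.0 ± 1.16 and 15.7 ± 0.944 FPKM without overlap (log2 fold change -0.26, adjusted p = 0.0985, and 0.0245 after rescaling to TPM). Pan2 and Uspl1, which have the fold but other functions, had fold changes of 0.01 and -0.01. Uchl5 and Uchl1 had fold changes of 0.40 and -0.33 (adjusted p = 0.0830 and 0.124), and Brcc3 of the JAMM family 0.27 (0.141).

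Of 15 tested partner proteins of the Usp enzymes, 1 was called (Atxn7, above), which is 6.67% beside 18.7% of all tested genes. An unadjusted limma p below 0.05 was found for 3, beside 3517 of all 10405 tested genes. The median log2 fold change was 0.01. G3bp2 (-0.27, adjusted p = 0.0666), Gmps, which activates Usp7 (0.27, 0.118), and Rnf41, a ligase that Usp8 stabilizes (0.18, 0.148), came next. Of 4 tested genes for ubiquitin and its activating enzymes, 1 was called (25%, beside 18.7% of all tested genes). Rps27a, which encodes ubiquitin fused to a ribosomal protein, rose 1.29-fold (1824 ± 222 to 2357 ± 217 FPKM, adjusted p = 0.0475). That call was lost after rescaling to TPM (0.0964), with quantile normalization (0.124), with no filter (0.106), in the fit with the replicate block (0.156), and when vehicle replicate 2 or 4 or sulfatide replicate 1 or 3 was left out (0.141 to 0.178). The polyubiquitin gene Ubb (1488 ± 103 and 1314 ± 23.2 FPKM, adjusted p = 0.162) was not called, although its groups did not overlap. It was called lower after rescaling to TPM (-0.29, adjusted p = 0.0350) and with quantile normalization (-0.29, adjusted p = 0.0459), where it was the one call of this list. Uba6, an activating enzyme, averaged 4.41 ± 0.823 and 3.30 ± 0.291 FPKM with overlap (-0.32, adjusted p = 0.145), and Uba1, the main activating enzyme, 165 ± 4.81 and 173 ± 6.67 FPKM (0.07, adjusted p = 0.527).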

How the data were processed

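RNA of cells in bronchoalveolar lavage fluid was sequenced in 6 libraries. Per the labels' protocols, poly(A) RNA was made into strand-marked (dUTP) libraries and read from both ends. Build mm10 was used, per the submitters' processing notes. Aligner, counter and annotation were not given in the sources used here. The authors deposited FPKM values rounded to 2 decimals. The table's 3 further value columns matched no sample and were not used.

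Values were analysed as log2(FPKM + 1) for genes at 1 FPKM or more in at least 3 libraries, with limma 3.58.1 in R 4.3.3 (eBayes with trend), 2-sided, with Benjamini-Hochberg adjustment over all 10405 tested genes. FPKM are not counts, so no count model was used. Fold changes on this scale understate those of low genes, and folds are ratios of mean FPKM. Absolute depth is unknown and limits the precision of low values. Exact permutation of 3 against 3 libraries has a smallest 2-sided p of 0.1 and was not run. The script was tested on simulated data. Alternatives were other pseudocounts, filters, scalings and weights, the replicate number as a block, and each library left out. In the block fit, vehicle replicate 4 and sulfatide replicate 1 were the only libraries of their numbers. The group difference there rested on replicates 2 and 3 alone. The members and gene lists were chosen with earlier results of these data known. By rule, the text names called members, the 8 with the highest level, the 3 largest changes not called, relatives side by side, and up to 4 genes of each list by p. The other members were added after their values were seen, to account for each. Some genes of the ubiquitin list are not reported here.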

Additional observations from a re-analysis of the deposited data

How the results depend on the processing

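Usp25 was called, with the same direction, under all 14 alternatives, and Usp12 under 12. The number of called members was 3 of 39 as reported, 6 of 38 after rescaling to TPM and 8 of 39 with array weights. The 6, all lower and without Usp1, were Usp8, Usp12, Usp19, Usp22, Usp25 and Usp47. The 8 were Usp1, Usp2, Usp8, Usp12, Usp22, Usp25, Usp42 and Usp47. When a library was left out the number was 1 to 3, and it was 1 without vehicle replicate 2 (Usp25). Without Usp6nl, an alternative chosen after seeing the data, it was 3 of 38. The number over all genes was 1943 of 10405, 1984 of 10190 after rescaling to TPM and 3777 of 10405 with array weights. It was 932 with the replicate block and 866 to 2484 when a library was left out. Of the called genes 44.5% were higher, but 23.6% after rescaling to TPM, 54.4% with array weights and 31.9% with the replicate block. The median of the members was -0.14 after rescaling to TPM, where that of all tested genes was -0.06, and -0.06 to -0.02 when a library was left out. Replicate numbers 2 and 3 occur in both groups, but no label states that they pair libraries, so they were not taken as pairs. Deviations of same-numbered libraries correlated at 0.156 and -0.303, and those of vehicle replicate 3 and sulfatide replicate 1 at 0.538. With 3 libraries per group these correlations depend on each other and cannot decide whether libraries are paired. With the replicate block 2 members (Usp12 and Usp25) were called. That fit draws its group difference from replicates 2 and 3 alone.

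Called genes of other deubiquitinase families, with Cyld, Pan2 and Uspl1, numbered 3 of 33, then 6 of 32 (TPM) and 10 of 33 (array weights). They numbered 2 to 5 when a library was left out. Partner proteins numbered 1, then 0 with the 5 FPKM filter (Atxn7 was not tested there, and 3 had an unadjusted p below 0.05 by limma), 2 (TPM), 6 (array weights), 0 with the replicate block (0 unadjusted) and 0 to 4 (a library left out, 1 to 5 unadjusted). Ubiquitin and E1 genes numbered 1 (Rps27a, higher), 1 after rescaling to TPM or with quantile normalization (Ubb, lower), 0 with no filter (1 unadjusted), 2 (array weights), 0 with the replicate block (2 unadjusted) and 0 to 1 (a library left out, 1 to 2 unadjusted). Cell cycle genes numbered 12, then 1 with no filter (19 unadjusted), 0 with the replicate block (9 unadjusted) and 0 to 22 (a library left out, 15 to 25 unadjusted). They numbered 11 (TPM), 14 (quantile normalization) and 17 (array weights).

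Of 530 alternative fold changes of the 39 members, 481 kept direction and side of the threshold, 9 lost a call, 10 gained one and 30 changed sign. The sign changes were of 10 members, none of them called. After rescaling to TPM the changed values were -0.0595 for Usp14, -0.103 for Usp5, -0.0129 for Usp15, -0.085 for Usp48, -0.057 for Usp30, -0.0823 for Pan2 and -0.0368 for Uba1. With the replicate block they were -0.048 for Usp14, -0.0296 for Usp5, -0.0357 for Usp48, 0.0486 for Usp40 and -0.0559 for Pan2. With array weights they were 0.00277 for Usp21, -0.0387 for Usp30, 0.0392 for Usp35, 0.036 for Usp27x, -0.0053 for Pan2 and 0.0484 for Uspl1. Of the genes that changed sign when a library was left out, the ranges were -0.0347 to 0.154 for Usp14, -0.0374 to 0.0307 for Usp5, -0.0621 to 0.0658 for Usp21, -0.0353 to 0.0837 for Usp48, -0.0528 to 0.164 for Usp30, -0.149 to 0.00365 for Usp35, -0.0821 to 0.0283 for Usp40, -0.00765 to 0.194 for Usp6nl, -0.101 to 0.0566 for Usp27x, -0.079 to 0.101 for Pan2 and -0.0624 to 0.0407 for Uspl1. The cause of these changes was not tested. Rounding to 2 decimals and unknown depth limit what the genes below 1 FPKM can show.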
